A study of Mus musculus with 11 samples.

Results

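H3K27me3 peaks that the 3 ganglionic eminences (GEs) of the embryonic mouse forebrain shared and the cortex (CTX) lacked are described here, with the genes at or nearest to them. The peaks were chosen by the overlap of the deposited peak lists: a peak of the lateral eminence (LGE) on chromosomes 1 to 19 or X was taken where at least 50% of its bases lay in peaks of the medial eminence (MGE), at least 50% lay in peaks of the caudal eminence (CGE), and 0 bases lay in a CTX peak. This gave 904 of 16851 LGE peaks (5.36%), covering 914.5 kb. Since presence in the eminences and absence in cortex are what the choice used, neither is a finding. The tissue came from wild-type C57BL/6J embryos, from which LGE, MGE, CGE and somatosensory cortex were dissected. The labels name embryonic days E12.5 and E14.5 without assigning an age to a sample, and the study's text places this assay at E12.5. LGE, CGE and CTX have 3 samples each and MGE has 2, 11 in all. They are numbered as replicates 1 and 2, number 2 being present as 2 samples outside MGE, so each region has 2 biological replicates, each from embryos pooled together, and peaks were called after merging them. With 1 list of broad peaks per region, the values carry no error between replicates and no difference between lists could be tested.

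H3K27me3 is the trimethylation of lysine 27 of histone H3. It is deposited by Polycomb repressive complex 2, and it lies over many developmental genes that are silent in a tissue. The GEs form the ventral telencephalon and give rise to GABAergic neurons, while the cortex, the dorsal telencephalon, gives rise to glutamatergic neurons. Transcription factors such as *Gli3*, *Lhx2* and the Dmrt and Nfi families are known for their roles in dorsal patterning, cortical progenitors and glia. In CUT&Tag an antibody brings a transposase to the marked nucleosomes, and peaks are stretches where the tagged DNA exceeds the local background. Each peak carries its fold enrichment and a −log10 q-value, which is called its strength here.

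The widest of these peaks at gene starts lay on *E130114P18Rik*, *Gja1*, *Tgif2* and *Gli3*. For 5 of the start genes, the 250 bases before the RefSeq start are given, 5′ to 3′ on the strand of the gene. All 5 windows lie entirely inside the LGE peak, so by the choice of peaks they hold no base of a CTX peak. The same holds for *Ptgfrn*, *Oaf*, *2610507B11Rik*, *Rnf152*, *Evc*, *Evc2* and *Ccdc102a*, whose windows are not shown. The *Ptgfrn* window lies outside the MGE peak, and the *2610507B11Rik* window lies outside both the MGE and the CGE peak. The sequences are credited to RefSeq on the build GRCm38.p6. Capitals mark each CG dinucleotide, which is dense in CpG islands, over which this mark often lies.
Gja1, chr10:56377050-56377299, plus strand: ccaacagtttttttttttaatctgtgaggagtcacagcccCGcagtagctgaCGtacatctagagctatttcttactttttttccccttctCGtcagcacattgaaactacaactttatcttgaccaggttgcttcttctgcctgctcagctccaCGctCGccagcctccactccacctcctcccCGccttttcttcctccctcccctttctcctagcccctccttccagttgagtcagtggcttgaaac
Tgif2, chr2:156839757-156840006, plus strand: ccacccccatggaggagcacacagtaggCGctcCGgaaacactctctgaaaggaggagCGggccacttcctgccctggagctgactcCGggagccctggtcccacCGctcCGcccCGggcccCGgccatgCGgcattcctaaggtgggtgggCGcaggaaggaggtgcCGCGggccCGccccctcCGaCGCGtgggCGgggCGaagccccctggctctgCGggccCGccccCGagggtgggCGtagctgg
Gli3, chr13:15463473-15463722, plus strand: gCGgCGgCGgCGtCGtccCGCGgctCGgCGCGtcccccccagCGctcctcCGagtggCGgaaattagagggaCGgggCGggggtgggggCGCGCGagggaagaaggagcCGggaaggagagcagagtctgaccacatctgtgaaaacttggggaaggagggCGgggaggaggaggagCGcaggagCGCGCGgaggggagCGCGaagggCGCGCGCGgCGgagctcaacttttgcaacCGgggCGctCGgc
Hk2, chr6:82774455-82774704, minus strand: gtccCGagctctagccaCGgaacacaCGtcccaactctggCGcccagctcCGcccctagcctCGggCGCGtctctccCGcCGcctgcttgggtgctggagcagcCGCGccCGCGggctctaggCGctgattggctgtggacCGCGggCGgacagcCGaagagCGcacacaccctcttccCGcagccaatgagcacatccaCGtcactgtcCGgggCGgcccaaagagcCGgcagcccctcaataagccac
Hopx, chr5:77115124-77115373, minus strand: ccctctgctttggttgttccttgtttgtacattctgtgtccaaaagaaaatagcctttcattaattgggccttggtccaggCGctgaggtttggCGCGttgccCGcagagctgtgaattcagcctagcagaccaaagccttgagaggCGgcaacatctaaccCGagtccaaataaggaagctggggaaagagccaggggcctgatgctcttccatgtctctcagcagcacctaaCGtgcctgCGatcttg

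The CpG content of the start windows varied widely. The *Gli3* window, which ends 488 bases after the outermost annotated 5′ end of the gene, held 34 CG, more than 96.5% of 32619 RefSeq windows of the same length. The *Hk2* window held 25 and the *Tgif2* window 22, above 89.3% and 85.1% of windows. *Hopx* with 8 and *Gja1* with 6 lay near the median of all windows, which is 6. In the windows inside an LGE peak that are not shown, counts ran from 11 in *Evc* and *Evc2* to 43 in *2610507B11Rik*. These lay above 64.2% and 99.3% of windows. A RefSeq window was matched for 66 of the 79 genes whose 5′ end lay inside one of the peaks.

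Most of the eminence peaks lay far from any gene start and were poor in CG. The central 300 bases are given for 2 intergenic peaks that were poor in CG even for such peaks, with CG again in capitals. The peak nearest to *Hs3st1* was among the strongest and the peak nearest to *Pcdh18* among the widest of the 904.
Hs3st1, chr5:39773660-39773959, plus strand: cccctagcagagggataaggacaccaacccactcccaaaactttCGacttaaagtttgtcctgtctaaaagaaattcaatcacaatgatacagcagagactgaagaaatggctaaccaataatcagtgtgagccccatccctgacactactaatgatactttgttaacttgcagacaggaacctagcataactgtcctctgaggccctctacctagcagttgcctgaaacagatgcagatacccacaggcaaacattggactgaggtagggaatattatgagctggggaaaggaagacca
Pcdh18, chr3:48809167-48809466, plus strand: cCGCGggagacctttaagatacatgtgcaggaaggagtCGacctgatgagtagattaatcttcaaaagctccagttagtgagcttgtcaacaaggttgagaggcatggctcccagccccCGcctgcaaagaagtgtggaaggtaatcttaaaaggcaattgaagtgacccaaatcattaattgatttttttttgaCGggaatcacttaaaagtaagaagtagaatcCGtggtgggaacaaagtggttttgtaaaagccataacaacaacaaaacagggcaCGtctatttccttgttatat

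The *Hs3st1* peak held 1 CG in its whole length of 1044 bases. The *Pcdh18* peak held 15 in 3229 bases.

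The 904 peaks were short and weak by the standard of peaks shared with cortex. Their median width was 765 bases (range 280 to 7314), against 1899 bases for the 8271 LGE peaks covered by at least 50% in all 3 other lists. Only 86 of them (9.51%) reached 2 kb, against 46.6% of the shared peaks. Their median strength was 2.98 in LGE, 3.02 in MGE and 5.48 in CGE, and that of the shared peaks in LGE was 13.2. The 1386 LGE peaks found in CGE and CTX and missing from MGE, chosen by the same rule with another region left out, were about as short and weak, with a median of 700 bases and a strength of 2.72. The 215 found in MGE and CTX and missing from CGE were shorter still, with a median of 490 bases and a strength of 2.39. Of the 904, 620 were strongest in CGE, 148 in LGE and 136 in MGE, whereas the fold enrichment was highest in LGE for 369, in MGE for 290 and in CGE for 245.

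Weak eminence peaks lacked a cortical counterpart more often than strong ones. Among the 9620 LGE peaks covered by at least 50% in both MGE and CGE, 904 (9.4%) had no base in CTX, 8271 were covered by at least 50% in CTX, and 445 had a smaller overlap. Sorted by strength in LGE into 10 bins of 962 peaks, the weakest bin (−log10 q of 1.06 to 2.38) had 34.7% without a CTX base. The share was 6.34% in bin 5, 0.728% in bin 7 and 0 of 962 peaks in the strongest bin. By the study's methods, more reads were sequenced for CTX than for LGE or MGE, and fewer than for CGE. The part of peak strength in the missing CTX peaks was not tested. The strongest of the 904, in *Zic2*, reached 43.1, and 274 passed a q-value of 0.001 in all 3 eminences.

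**Figure D1:**
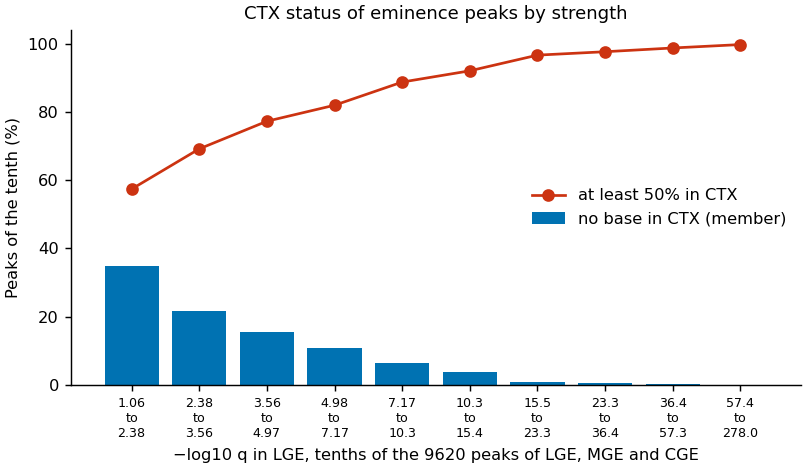
CTX status of the 9620 LGE peaks shared with MGE and CGE, in 10 bins by their −log10 q in LGE (x axis). Bars show the percentage of each bin with no base in a CTX peak, falling from 34.7% to 0, and the line the percentage with at least 50% of bases in CTX peaks, rising from 57.4% to 99.8%.

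The surroundings of the eminence peaks were also sparser in CTX peaks. At 9.75 kb before the peak centres, 4.44% of bases lay in CTX peaks, against 6.43% in LGE, 7.47% in MGE and 7.61% in CGE peaks. The gap varied along the flanks, and at 9.25 kb after the centres it was 3.36% in CTX against 3.55% in LGE. Such a dip was not particular to CTX. At 9.75 kb before the centres of the peaks missing from MGE, MGE was lowest, with 4.26%. LGE had 6.97%, CGE 8.58% and CTX 9.30% there. The median distance to the nearest CTX peak was 24.5 kb. A CTX peak lay closer than 1 kb for 20 of the 904 and closer than 5 kb for 222 (24.6%). No such distances are given here for other LGE peaks.

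**Figure D2:**
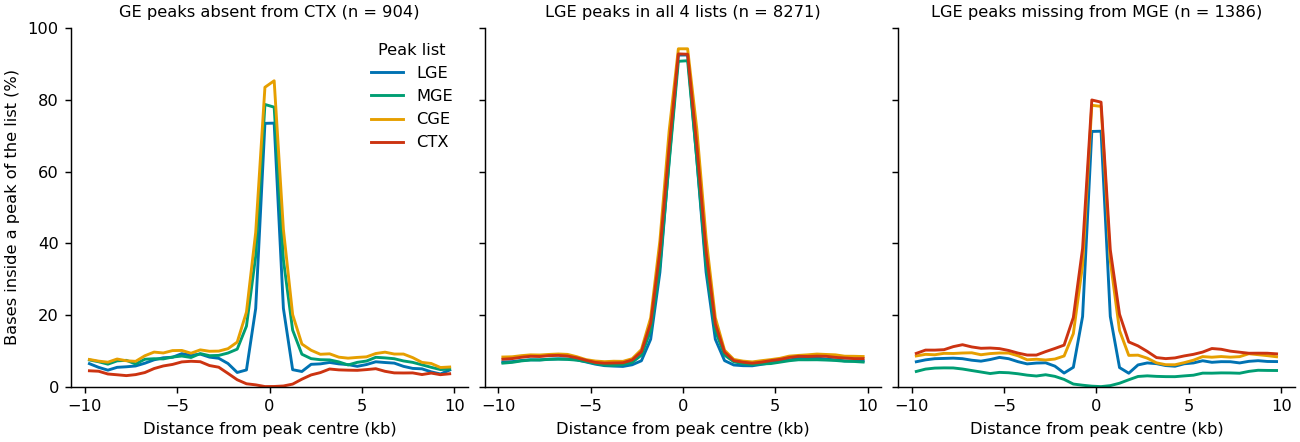
Percentage of bases inside a peak of each list (y axis) by distance from the centre of the LGE peak (x axis, bins of 500 bases), for the 904 eminence peaks, the 8271 peaks in all 4 lists and the 1386 peaks missing from MGE. The dip to near 0 in CTX in the left panel, and in MGE in the right panel, is fixed by the choice of peaks, while the outer bins show the level of each list around them.

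Peaks at gene starts were a small part of the 904. A peak was placed by its first match among the 5′ end of a protein-coding gene, the 2 kb upstream of it, an exon, an intron, or intergenic sequence. Of the 904, 77 (8.52%) held a gene start, 32 lay on the upstream 2 kb, 146 (16.2%) touched an exon, 275 (30.4%) lay in introns and 374 (41.4%) were intergenic. Of the 146 exon peaks, 99 touched coding sequence. In the peaks shared by all 4 lists, 39.2% held a gene start, 10.2% were intronic and 23.4% intergenic. The 2 kb upstream of a gene, its promoter here, was touched by 12.1% of the 904 (exact 95% binomial interval 10.0 to 14.4, for the counting of peaks only), by 43.0% of the shared peaks, by 12.2% of the peaks missing from MGE and by 41.4% of those missing from CGE. The 12.1% became 23.6% when all lists, CTX included, were filtered at a q-value of 0.001, which also brings in other peaks. With that filter in the eminence lists alone and the whole CTX list, it was 13.1%. It was 22.8% with lists of equal covered bases. Promoters taken 2 kb either side of the 5′ end gave 19.6%, and the starts of all annotated transcripts gave 21.9%.

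**Figure D3:**
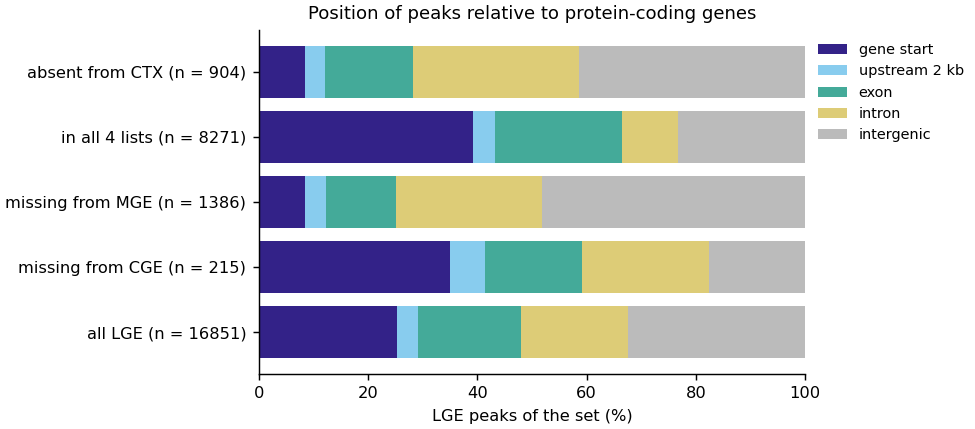
Percentage of LGE peaks (x axis) at a gene start, on the upstream 2 kb, in an exon, in an intron or between genes, for each set of LGE peaks (y axis, with the number of peaks). Gene starts make up 8.52% of the peaks absent from CTX and 8.37% of those missing from MGE, against 34.9% of those missing from CGE and 39.2% of the peaks in all 4 lists.

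A gap in promoter share was also present within 1 range of strength. Of peaks with a −log10 q from 2 to 5, 11.7% of 454 eminence peaks touched a promoter, against 33.8% of 1613 shared peaks and 13.2% of 805 peaks missing from MGE. Their median widths still differed, at 784, 1039 and 690 bases, and the part of width or of strength in the gap was not tested. The CpG content was low as well. The median ratio of observed to expected CpG was 0.302 in the 904 peaks, 0.457 in the shared peaks, 0.251 in the peaks missing from MGE and 0.624 in those missing from CGE. Within the 904 it was 0.602 at gene starts, 0.483 in exons, 0.243 in introns and 0.25 between genes. In promoter share and CpG content, the peaks absent from cortex were thus close to those missing from MGE, whereas those missing from CGE were near the shared peaks in promoter share and above them in CpG ratio. With 1 list a region none of these differences was tested.

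Within genes, the peaks were spread along the whole body. Of 421 peaks in exons or introns, 107 lay in the first 20% of the gene from its 5′ end and 73 in the last 20%, with a median position of 41.9% of the length. The median distance to the nearest gene start was 31.9 kb, against 10.5 kb for all LGE peaks and 32.3 kb for those missing from MGE. The peak lay downstream of that start, on the side of the gene body, for 516 of the 904 and upstream of it for 311. Members made up between 3.0% (chromosome 15) and 7.64% (chromosome 3) of the LGE peaks of a chromosome, and 21 of the 390 LGE peaks on chromosome X. Another of the 904 lay within 50 kb for 264 of them. The counts along the gene body, by side of the start and by spacing have no counterpart here for other LGE peaks. They describe the 904 without showing a trait particular to them.

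A total of 448 of 21755 protein-coding genes (2.06%) had one of these peaks on the body or the upstream 2 kb, and 79 (0.363%) had the 5′ end inside one. For 76 of those 79, no CTX base lay within 2 kb either side of the 5′ end, although the part inside the peak is free of CTX by the choice. Over the whole body and upstream 2 kb, 173 of the 448 genes had no CTX base, while 275 carried CTX peaks elsewhere on the gene. These genes were long, with a median of 82.6 kb against 17.4 kb for all protein-coding genes and 27.9 kb for the 7823 genes with any LGE base. A longer gene has more room for a peak, and the part of gene length was not tested. Of those 7823, 5.73% had one of the 904 peaks.

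Among the 15 genes with the widest peak at the 5′ end, coverage of the 4 kb centred on that end was 0.0% in CTX for each. Much of this is fixed by the choice of peaks. LGE peaks covered 47.9% to 88.2% of these 4 kb, and the start peaks hold no CTX base by the rule. *E130114P18Rik* had the widest start peak, 3880 bases at chr4:97775727-97779606, covering 88.2% of the 4 kb in LGE, 96.3% in MGE and 88.9% in CGE. This holds for the outermost annotated 5′ end only. The RefSeq start matched to the gene lies 193487 bases further along it, outside this peak. The same peak reaches into *Nfia*, which encodes a nuclear factor I protein of glial and cortical development and is transcribed in the opposite direction, and touches its coding sequence 2.99 kb inside the gene. Its strength was 3.88 in LGE, 4.24 in MGE and 7.71 in CGE, and the nearest CTX peak was 798 kb away. The body of *Nfia*, counted here and below with the upstream 2 kb, was covered by 3.19% in LGE, 2.71% in MGE, 2.76% in CGE and 0.0% in CTX.

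*Gja1*, encoding the gap junction protein connexin 43 of radial glia, had a start peak of 2987 bases at chr10:56376225-56379211. It covered 74.7% of the 4 kb in LGE, 75.1% in MGE and 74.0% in CGE. Its strength was 2.44 in LGE, 6.62 in MGE and 13.2 in CGE, so the LGE peak alone would fail a q-value of 0.001.

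*Tgif2* and *Tgif1*, a pair of homeobox corepressors of TGF-beta signalling, both carried these peaks. The *Tgif2* peak, 2754 bases at chr2:156839644-156842397, spanned the gene start with a strength of 5.21 in LGE, 7.35 in MGE and 21.1 in CGE. The *Tgif1* peak, 3421 bases at chr17:70848627-70852047, began 1.5 kb inside the gene in LGE, whereas the MGE peak also covered the start. It covered 30.2% of the *Tgif1* body in LGE, 50.1% in MGE, 40.8% in CGE and 0.0% in CTX. The nearest CTX peak was 63.0 kb from the *Tgif2* peak and 29.3 kb from the *Tgif1* peak.

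*Gli3*, the zinc finger effector of hedgehog signalling that acts mainly as a repressor and is needed for dorsal telencephalon, had a start peak of 2672 bases at chr13:15462512-15465183. The 4 kb around the start were covered by 66.8% in LGE, 77.2% in MGE, 79.4% in CGE and 0.0% in CTX, with strengths of 5.96, 10.9 and 23.8 in the eminences. The nearest CTX peak was 550 kb away, and the entire *Gli3* body had no CTX base. *Oaf* had a stronger start peak, 16.3 in LGE, 18.1 in MGE and 66.4 in CGE, over 2666 bases at chr9:43237780-43240445.

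The other start peaks lay on genes of various functions. *Hk2*, a hexokinase, had 2316 bases at chr6:82772505-82774820, with strengths of 2.68, 4.83 and 10.8 in LGE, MGE and CGE, so its LGE peak too would fail a q-value of 0.001. *Ak4*, a mitochondrial adenylate kinase, had 2071 bases with strengths of 7.06, 6.12 and 15.4. *Evc* and *Evc2*, which encode partner proteins of the cilium base that act in hedgehog signalling, are transcribed away from each other and shared 1 peak of 2019 bases, so they are 1 observation. That peak had strengths of 2.36, 4.18 and 6.59 and fails a q-value of 0.001 in LGE. *Angpt1*, a ligand of the receptor Tie2 in blood vessels, had a peak of 2025 bases that began 25 bases before the gene start in LGE, while the MGE and CGE peaks began 57 and 20 bases after it. In *Ptgfrn* and *2610507B11Rik* the LGE peak held the start but the MGE peak did not, and in the latter neither did the CGE peak. These 2 peaks were weak, with strengths of 1.64 and 1.49 in LGE and 2.64 and 1.48 in MGE.

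*Hopx*, a homeodomain protein known as a marker of radial glia, showed another arrangement. Its start peak, 2119 bases at chr5:77114093-77116211, had a strength of 9.83 in LGE, 8.89 in MGE and 3.3 in CGE. CTX peaks lay upstream, the nearest 3.18 kb from the peak, and further along the gene, and the *Hopx* body was covered by 28.2% in LGE, 16.8% in MGE, 20% in CGE and 5.57% in CTX. Its start peak no longer met the rule once peaks less than 3 kb apart were joined. *Ccdc102a* likewise had a CTX peak 2.69 kb from its start peak.

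**Figure D4:**
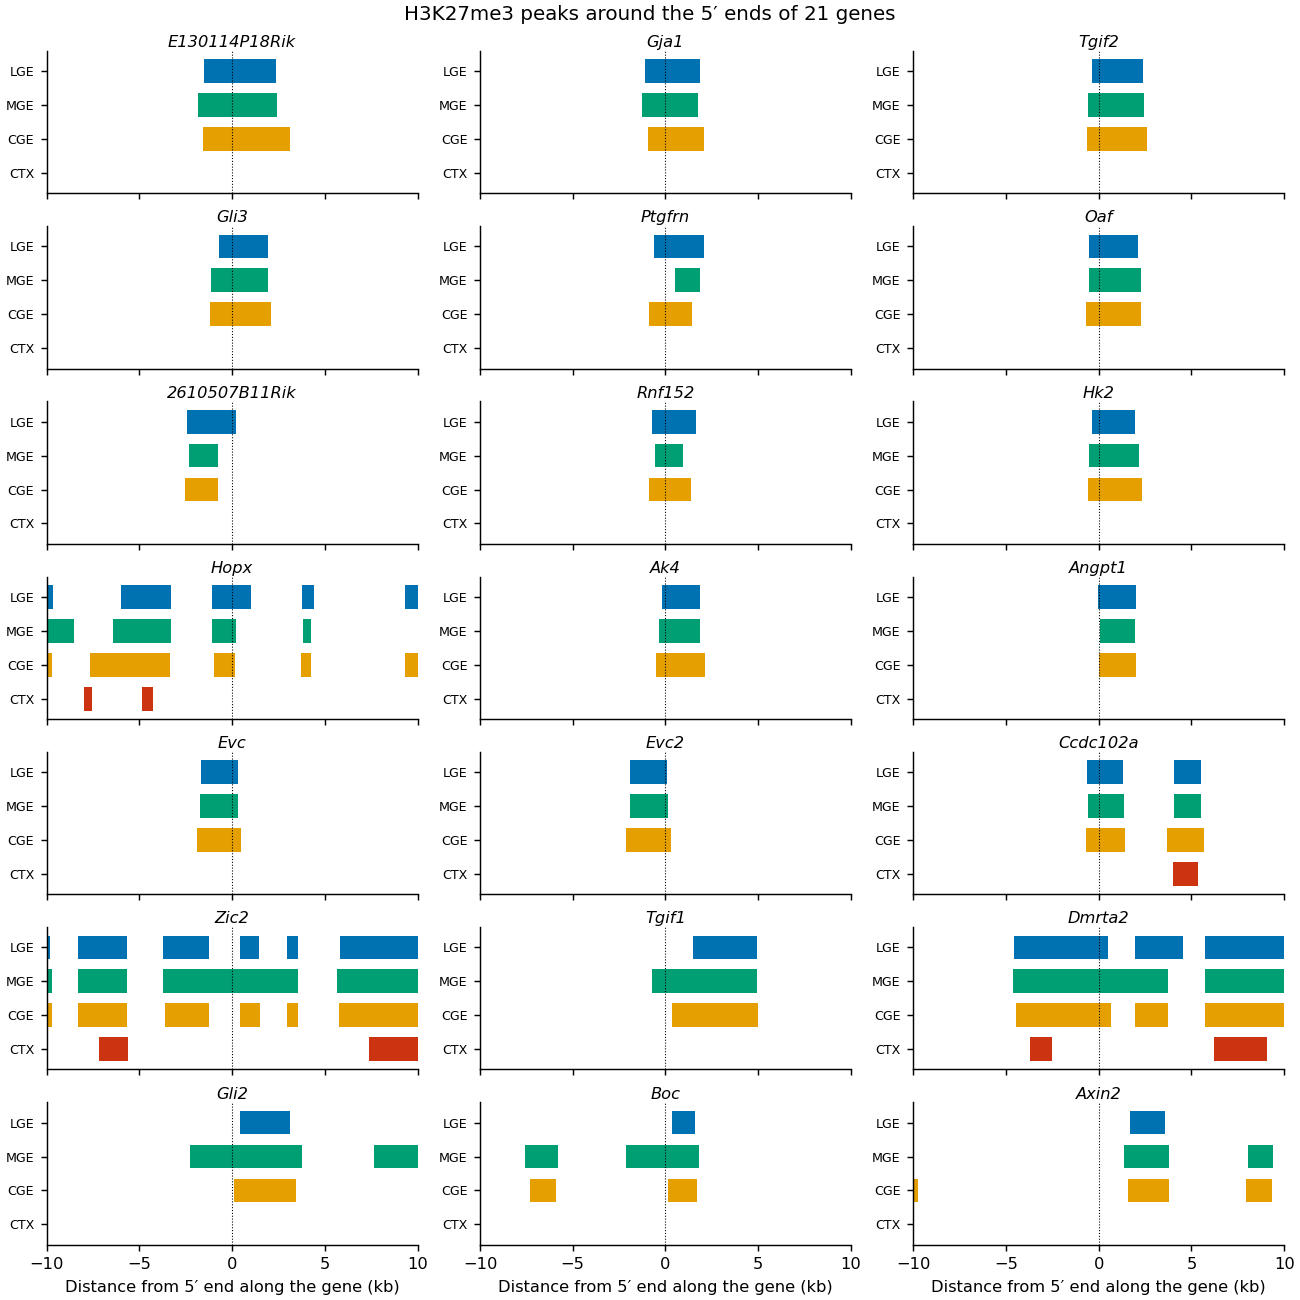
Peaks of the 4 lists within 10 kb of the 5′ end of 21 genes, drawn to scale along the direction of each gene (x axis, kb; dotted line, 5′ end; rows, LGE, MGE, CGE and CTX). The first 15 are the genes with the widest eminence peak at the 5′ end and the last 6 are other genes described here. CTX peaks appear only in the panels of *Hopx*, *Ccdc102a*, *Zic2* and *Dmrta2*, away from the 5′ end.

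The strongest of the 904 lay on *Zic2*, a zinc finger factor of early forebrain and midline development. In LGE, *Zic2* carried 3 of the peaks: 2517 bases ending 1237 bases before the gene start with a strength of 11.8, 1044 bases in the first part of the gene with a strength of 23.5, and 598 bases near its end with a strength of 43.1. The CGE list had 3 peaks at nearly the same places, whereas the MGE list had 1 peak of 7304 bases across them with a strength of 12.5. The *Zic2* body and upstream 2 kb were covered by 37.5% in LGE, 86.5% in MGE, 37.5% in CGE and 0.0% in CTX, with CTX peaks on both sides, 1885 bases before the first and 3834 bases after the last of the 3 peaks. The absence from CTX at *Zic2* was thus a gap within a longer marked stretch, and no *Zic2* peak met the rule once peaks less than 3 kb apart were joined.

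Other strong peaks lay outside promoters. *Zfp608*, a zinc finger gene, was the gene nearest to peaks of strength 27.3 and 21.3 in LGE that lay 166 and 233 kb from its start, with the nearest CTX peak 1200 kb away from both. *Nfib*, of the same nuclear factor I family as *Nfia*, had a peak of 1027 bases on a coding exon at chr4:82504024-82505050 with strengths of 26.8 in LGE, 17.2 in MGE and 61.2 in CGE, and its fold enrichment was 5.46, 3.9 and 4.3. A *Zic4* exon peak of 540 bases reached 24.4 in LGE with a CTX peak 2.0 kb away. *Hs3st1*, a heparan sulfate sulfotransferase, was nearest to an intergenic peak of strength 20.9 in LGE and 14.9 in both MGE and CGE. Peaks near *Ppp1r1b*, encoding the dopamine signalling protein DARPP-32, in an intron of *Wdr72* and near *Ppara* had strengths of 21.5, 18.2 and 17.8 in LGE and lay 1.83, 1.74 and 4.51 kb from a CTX peak.

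The widest of the 904, 7314 bases at chr7:109808027-109815340, lay in *Scube2*, whose product helps to release hedgehog ligands from cells. It touched coding exons 50.3 kb from the gene start. The start itself was covered in all 4 lists, by 66.3% in LGE, 76.3% in MGE, 66.6% in CGE and 66.1% in CTX of the 4 kb, while the body was covered by 18.3%, 23.5%, 18.1% and 5.93%. In *Scube2* the difference to CTX was therefore in the gene body and not at the start. A second peak of the *E130114P18Rik* body, 4221 bases at chr4:97751260-97755480, was also among the 10 widest, as were intergenic peaks nearest to *Lyzl1*, *Xkr9*, *Myb* and *Pcdh18*, at 325, 189, 58.3 and 946 kb from the gene start, an intronic peak of *Bcor* and an exon peak of *Cdhr3*.

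Several genes carried a series of these peaks. *Alpk1*, encoding an alpha kinase of innate immune sensing, had 8 within 110 kb, between 394 and 3104 bases wide, 6 of them in introns. The *Alpk1* body was covered by 13.6% in LGE, 23.6% in MGE, 20.7% in CGE and 2.21% in CTX. *Adamtsl1*, an extracellular matrix gene, had 5, from 190 to 224 kb inside the gene, with 1.14%, 2.24%, 1.84% and 0.169% of the body covered. *Cachd1* and *Dach1*, the latter a transcription factor of the dachshund family, had 4 each and no CTX base on the body. *Clybl*, *Fgfr2*, *Lrmda* and *Sox6* also had 4 each, with CTX peaks elsewhere on the gene. In all, 73 genes carried 2 or more of the peaks, a count with no counterpart here for other sets of LGE peaks.

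Of 40 transcription factors of the pallium, the dorsal telencephalon, 10 carried one of the peaks (25.0%), and of 40 of the subpallium, its ventral counterpart, 4 did (10.0%), against 2.06% of all genes. Counting genes with an LGE base alone, the shares were 10 of 37 (27%), 4 of 38 (10.5%) and 5.73%. The pallial genes were *Lhx2*, *Lhx9*, *Dmrta2*, *Dmrt3*, *Nfia*, *Nfib*, *Nfix*, *Tfap2c*, *Gli3* and *Foxp2*, and the subpallial genes were *Ebf1*, *Foxp1*, *Prox1* and *Sox6*. A gene without any LGE peak cannot carry one of the 904, and genes marked in many places have more chances. The lists were also chosen with earlier results of these data known, so these shares are only a description. Of the widest peaks in *Nfia*, *Gli3*, *Dmrta2* and *Nfib*, those of *Nfia* and *Gli3* were kept under all 5 settings described at the end. Of those in *Foxp1*, *Ebf1*, *Sox6* and *Prox1*, the *Foxp1* and *Ebf1* peaks were kept. Over each whole list, the coverage of the body and upstream 2 kb in the mean eminence minus that in CTX had a median of 0.864 percentage points for the pallial genes (26 higher in the eminences and 12 lower) and −0.662 for the subpallial genes (12 higher and 27 lower), with 0.0 for all genes (4789 higher and 5230 lower).

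The pallial genes differed in where the mark was missing from CTX. *Dmrta2*, a factor of the cortical hem and dorsal patterning, was covered over its body and upstream 2 kb by 67.3% in LGE, 75.4% in MGE, 59.0% in CGE and 0.0% in CTX. Its upstream 2 kb were covered by 100.0% in each eminence and 0.0% in CTX, and its peak no longer met the rule once neighbouring peaks were joined. *Dmrt3*, of the same family, had an upstream coverage of 21.4% in LGE, 67.3% in MGE, 26.4% in CGE and 0.0% in CTX. In *Lhx2*, a selector of cortical identity, CTX peaks remained, with 18.6%, 38.7%, 32.9% and 16.9% of the body covered. *Nfix* was covered by 33.5%, 36.3%, 38.0% and 16.1%, and *Tfap2c*, a factor of cortical progenitors, by 40.6%, 55.8%, 42.7% and 16.2%. *Lhx9* carried CTX peaks over 37.1% of its body, between the 32.6% of LGE and the 43.4% of MGE.

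Of the signalling lists, the hedgehog pathway had 4 of 19 genes with a peak (21.1%, against 2.06% of all genes), *Gli2*, *Gli3*, *Boc* and *Scube2*. They were 25.0% of the 16 hedgehog genes with an LGE base, against 5.73% of all genes with one. At the starts of *Gli2*, the main activating effector, and *Boc*, a co-receptor, the MGE peak was wider than the others. The 4 kb at the *Gli2* start were covered by 38.7% in LGE, 100.0% in MGE, 48.0% in CGE and 0.0% in CTX. Those at *Boc* were covered by 30.0%, 94.8%, 38.6% and 0.0%, from an LGE peak with a strength of 2.59 that fails a q-value of 0.001. Over the whole hedgehog list, the median difference of eminence and CTX coverage was −0.683 percentage points, with 8 genes higher and 10 lower, so the list as a whole did not lean to the eminences.

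In the Wnt pathway 6 of 57 genes (10.5%, against 2.06% of all genes) had a peak, or 11.1% of those with an LGE base against 5.73%. They were the ligand gene *Wnt8b*, the receptor genes *Lrp5* and *Ror2*, the feedback inhibitor *Axin2* and the nuclear effectors *Lef1* and *Tcf7l2*. *Axin2* was covered by 5.89% in LGE, 13.6% in MGE, 12% in CGE and 0.0% in CTX, from a peak that began 1.69 kb inside the gene. The *Lrp5* start was covered over 47.1%, 50.3%, 68.4% and 0.0% of its 4 kb. *Lef1* kept a CTX peak near its start, with 53.2%, 65.7%, 64.6% and 22.2% of the 4 kb covered. *Tcf7l2* had more of its body covered in CTX (12%) than in LGE (7.18%) or MGE (6.22%), with 15.7% in CGE.

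Among BMP and TGF-beta genes 4 of 53 (7.55%) had a peak, *Inha*, *Inhba*, *Tgfbr3* and *Smad6*, and in the Fgf pathway 2 of 35 (5.71%), *Fgf10* and *Fgfr2*. Strengths in LGE were 4.57 in *Inha*, 2.75 in *Inhba*, 2.06 in *Tgfbr3*, 1.39 in the widest *Smad6* peak and 2.94 at the *Fgf10* start. The *Fgf10* start was covered over 24.0% of its 4 kb in LGE, 68.2% in MGE, 28.8% in CGE and 0.0% in CTX. Axon guidance genes had 5 of 73 (6.85%), *Slit1*, *Sema5b*, *Plxnb2*, *Plxnc1* and *Dcc*, and in *Slit1* CTX covered more of the body (13.5%) than LGE (5.58%), MGE (3.22%) or CGE (12.5%). *Notch2* was 1 of 24 Notch pathway genes (4.17%), *Gabbr2* was 1 of 48 genes of glutamate and GABA transmission (2.08%), and *Kcnma1* and *Kcnq1* were 2 of 58 potassium channel genes (3.45%). None of 39 Hox genes, which are silent in forebrain, had one of the peaks, although all 39 carried LGE and CTX peaks, and none of 41 large-subunit ribosomal protein genes had one, of which 7 carried an LGE base. Against the 5.73% of all genes with an LGE base, the shares among LGE-marked genes were 8.89% for BMP and TGF-beta, 8.2% for axon guidance, 6.67% for Fgf, 4.35% for Notch, 3.64% for potassium channels and 2.5% for transmission.

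**Figure D5:**
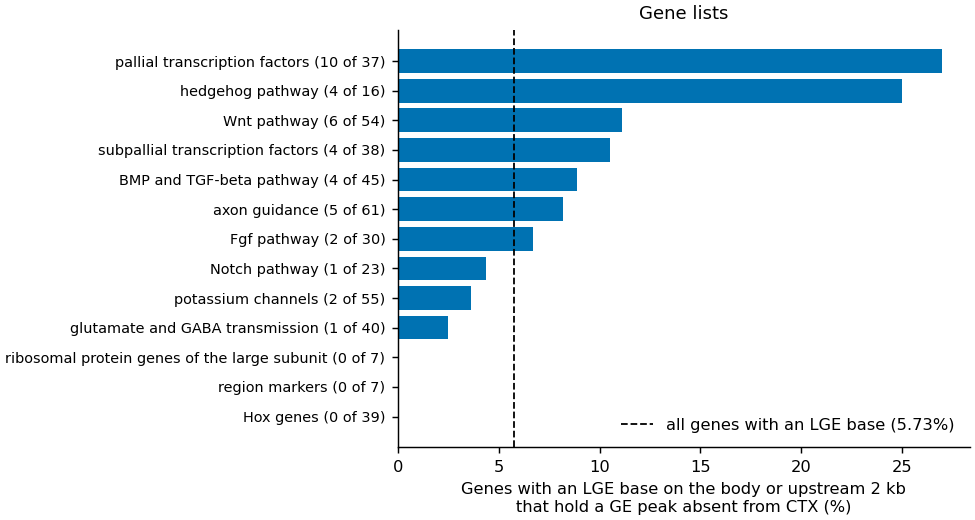
For each gene list (y axis, with the number of genes holding one of the 904 peaks of those with an LGE base), the percentage of genes with an LGE base on the body or upstream 2 kb that hold an eminence peak absent from CTX (x axis). The dashed line is the value for all protein-coding genes with an LGE base, 5.73%, and the pallial transcription factors stand at 27%. The lists were chosen with earlier results of these data known.

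The region labels could be checked only in part by this mark. None of 8 genes known to mark one of the regions, all eminences or GABAergic neurons carried one of the peaks. *Nkx2-1*, the selector of the MGE, was covered by 100.0% at its upstream 2 kb in all 4 lists, MGE included, and *Neurod6*, a cortical neuron gene, by 0.0% in all 4. *Emx1*, a cortical gene, was covered over 47.6% of its body in LGE, 48.3% in MGE and CGE and 28.7% in CTX. Its upstream 2 kb hardly differed, with 97.3% in CTX against 97.8% in LGE and 100.0% in MGE and CGE. *Lhx6*, of MGE neurons, was covered over 69.2% of the 4 kb at its start in MGE and 100.0% elsewhere. Its upstream 2 kb were at 100.0% in all 4 lists. Its body was at 44.1% in MGE, close to LGE (45.4%) and below CTX (52.8%) and CGE (55.3%). *Nr2f2*, of the CGE, was covered over 24.4% of its body in CGE and 36.4% to 39.9% elsewhere. The 4 kb at its start were at 59.7% in MGE and 27.3% to 27.6% elsewhere, so CGE did not stand apart there. Its upstream 2 kb were at 100.0% in MGE and 54.5% to 55.2% elsewhere. Whether *Emx1*, *Lhx6* and *Nr2f2* set their region apart thus depended on the part of the gene measured. *Dlx2*, active in all eminences, was covered over 12.3% of its body in MGE, 39.4% in LGE, 40.4% in CGE and 40.7% in CTX, and *Gad1*, of GABAergic neurons, over 17.6% to 18.1% in all 4. *Neurod2*, of cortical neurons, was covered over 66.1% in CTX, above LGE (58.5%) and CGE (59.4%) and below MGE (85.6%). The deposited lists hold between 15384 (MGE) and 19196 (CGE) peaks over 24.5 to 32.9 Mb, with 18785 peaks over 31.2 Mb in CTX, so CTX was not the sparsest list.

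The thresholds of the choice cut through a continuous range. Peaks just inside the limit for MGE, nearest to *Clrn3*, *Dicer1* and *Rfx3*, were covered by 50.1% to 50.3%, and those just outside, nearest to *Atrnl1*, *Ryr1* and *4930535I16Rik*, by 49.7% to 49.5%. For CGE, peaks near *Psen2*, *Lpar3* and *Ntrk2* had 50.5% to 51.0% and those near *Rab11fip2*, *Kcnma1* and *Irf2bp2* had 49.5% to 47.8%. The peaks near *Zfp281* and *Dand5* and that at the predicted genes *Gm13285*, *Gm13287* and *Gm13288* were left out for 9 bases in CTX, and the peak of *Cracr2a* was kept with a CTX peak 49 bases away.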

How the data were processed

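The 11 H3K27me3 CUT&Tag samples were assigned to LGE, CGE or CTX (3 each) or MGE (2) from their titles. By its methods and reporting notes the study made 2 biological replicates a region from pooled embryos, and samples with the same number were taken as 1 replicate. The extraction protocol in the labels mentions combining nuclei of the regions, although each sample is labelled with 1 region, and the lists were treated as those of the labelled regions. The authors aligned reads to GRCm38 (mm10) with Bowtie2, removed blacklisted reads and PCR duplicates (Picard), merged the samples of a region with SAMtools and ran MACS in its broad mode. Which MACS version and control were used is not given in the sources used here. The deposited lists hold a fold enrichment, a ratio to background, and a −log10 q-value for each peak. The lists hold no read counts. By the study's methods, the reads sequenced were most for CGE, then CTX, LGE and MGE, and more reads for a region can give it more peaks. Replicates could not be compared or left out.

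Overlap was counted in bases, on 20 chromosomes. Genes were the protein-coding genes of GENCODE M21, with sequence from RefSeq, both on GRCm38. The promoter was the 2 kb upstream of the outermost 5′ end. Observed over expected CpG was the number of CG times the length over the product of C and G counts. Strength in MGE and CGE was the highest −log10 q of the overlapping peaks. Python 3.11.15 and scipy 1.17.1 were used, and the selection was tested on simulated lists. No test was run between regions.

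Genes were named as up to 15 with the 5′ end in a peak, by width; those at the 10 strongest and 10 widest peaks; up to 4 per gene list, by width; 5 with most peaks, ties in alphabetical order; and those at the 3 peaks nearest each threshold. In addition, the other members of a list or tie were named, and 6 genes were chosen for the locus plot after their values were seen. The peaks, gene lists and rules were chosen with earlier results of these data known. Alternatives were q-value filters, joined peaks, lists of equal number or equal bases, autosomes, other overlap limits, other anchor lists and other promoter definitions.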

Additional observations from a re-analysis of the deposited data

How the results depend on the processing

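The number of peaks stayed within 1.5 times of 904 in 10 of the 12 alternatives, and was 274 with a q-value under 0.001 in the eminence lists against the whole CTX list, and 600 with at least 80% of bases in MGE and CGE. The share touching a promoter (12.1%) was 23.6% with a q-value under 0.001 in all lists. With that filter in the eminence lists alone it was 13.1%. It was 16.6% with equal numbers of strongest peaks, 22.8% with strongest peaks of equal covered bases and 15.3% with peaks of the CGE list. Promoters 2 kb either side of the 5′ end gave 19.6% and any annotated transcript gave 21.9%. The median CpG ratio (0.302) was 0.382 with a q-value under 0.001 in all lists, 0.331 with that filter in the eminence lists alone, 0.328 with equal numbers, 0.378 with equal covered bases and 0.323 with at least 80%. Filtering the CTX list also adds LGE peaks whose CTX counterpart is weak, so these are partly other peaks: of the 904, 274 (30.3%) overlapped one of the 716 peaks chosen with a q-value under 0.001 in all lists, 763 one chosen with equal numbers and 535 one chosen with equal covered bases. With equal covered bases 8.96% of LGE peaks were missing from CTX alone, 2.78% from MGE and 3.39% from CGE, against 5.36%, 8.23% and 1.28% in the lists as deposited, so the order of the regions depends on the list size. The part of depth in these values was not tested beyond the lists of equal size. No paired analysis was possible because each region has 1 list of merged samples and no result comes from a test.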

Other observations

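Of the 904 peaks, 205 (22.7%) overlapped a chosen peak under each of 5 settings: the q-value filter in the eminence lists, joined peaks, equal numbers, equal covered bases and no CTX peak within 1 kb. They made up 31.2% of the peaks at gene starts (24 of 77), 24.7% of those in exons, 23.8% of those between genes, 19.3% of those in introns and 9.38% of those on the upstream 2 kb (3 of 32). Of the genes with the widest start peaks, *E130114P18Rik*, *Tgif2*, *Gli3*, *Oaf*, *Rnf152*, *Ak4* and *Angpt1* were among them. *Gja1* and *Hk2* were lost with the q-value filter, and *Hopx* was lost when peaks were joined and with equal covered bases. The coding exon peak of *Nfib*, the peaks of *Tgif1*, *Axin2* and *Scube2* described above and 4 of the 8 *Alpk1* peaks were kept, while those of *Zic2*, *Dmrta2* and *Boc* were not.

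Apart from protein-coding genes, 72 of the intergenic peaks overlapped an annotated gene of any other type, and 30 of the 904 held the 5′ end of a non-coding RNA gene.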
